A study of Arabidopsis thaliana with 12 samples.

Results

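The features described here are the 645 genes and transposable elements that the authors' deposited table lists as different between idn2-1 and Col-0 and that are in neither of the tables for nrpe1 and swi3b +/-. They are 539 genes and 106 elements, out of 883 features listed for idn2-1 and 1618 distinct features listed over the 3 mutants. The members were chosen by the authors' q-value (their p-value adjusted for the number of tests, with 0.05 as the limit) in the same contrast whose levels are given below. Directions and sizes are therefore descriptions, and no test was run on them. Absence from the other tables means only that a feature did not pass the limit there, not that it was the same as in Col-0. All 3 comparisons use Col-0 as control.

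The series holds RNA-seq of whole Arabidopsis thaliana seedlings, grown in long days for 2 to 3 weeks. Its 12 samples comprise 3 biological replicates per genotype: idn2-1, nrpe1, plants heterozygous for swi3b (swi3b +/-), and Col-0 as wild type. The labels give nothing further on the alleles. The idn2-1 samples are numbered in a run apart from those of Col-0, nrpe1 and swi3b +/-. Whether their libraries were made together with those of Col-0 is not in the labels. An effect of genotype and one of preparation could thus not be told apart if they were made separately. Ribosomal RNA was depleted from total RNA before sequencing. Levels are RPKM, reads scaled by feature length and library size. The deposited table holds a single pooled value per genotype, so the spread between replicates and the read depth are unknown for every value. Because the table holds only features past the limit, seedling markers could not be checked, and IDN2 (AT3G48670) itself is not among its rows.

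IDN2 binds RNA and acts in the pathway of RNA-directed DNA methylation, in which small RNAs pair with transcripts of RNA polymerase V, whose largest subunit is NRPE1, and guide DNA methyltransferases to transposons and repeats. IDN2 also associates with SWI3B, a subunit of SWI/SNF nucleosome remodelling complexes. The contrast asks which transcripts differ when IDN2 is mutated, and the features below are those for which no listing in the other mutants stands beside it.

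Among the members, 201 were higher and 444 lower in idn2-1 per the authors' deposited table. The p-values and q-values of that table imply 27755 tested features. Members were 2.32% of them, with 0.724% higher and 1.6% lower. The whole idn2-1 list was 3.18% of them, with 1.24% higher and 1.95% lower. Nothing is read from these shares, since the limit that set them also chose the members. The 238 features that are also listed in another mutant had the opposite balance, with 142 higher and 96 lower. Their changes were of similar size: the median fold was 2.48 there and 2.30 among members. A q below 0.01 was listed for 66.4% of those 238 features and for 38.8% of the members. No member gene or element with values above 0 in both genotypes differed by less than 1.86-fold.

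The members just inside the limit were the pentatricopeptide gene AT3G54980 at 3.61 RPKM in Col-0 and 1.80 in idn2-1, AT1G64470 at 2.69 and 0.957, and the snoRNA gene AT2G20723 at 4470 and 10139 (q of 0.0499 for all 3 per the authors' deposited table, ties being ordered by p). Just outside the rule lie features that another mutant lists by a narrow margin. AT2G42975 was at 3.06 RPKM in Col-0 and 7.44 in idn2-1, and it is not a member because the authors' deposited table for swi3b +/- gives it a q of 0.0497. AT4G20820 was at 1.27 and 2.99 RPKM, and its q per the authors' deposited table for nrpe1 was 0.0481.

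**Figure D1:**
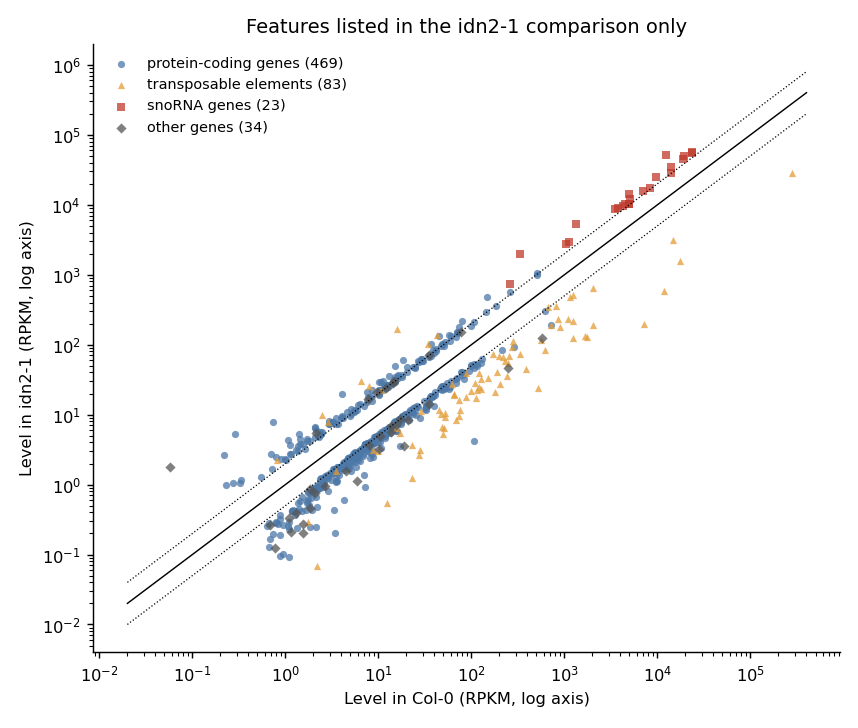
Level in idn2-1 against level in Col-0 for the 609 members above 0 in both genotypes, in RPKM on log axes, with the line of equal levels (solid) and of 2-fold differences (dotted). The 23 snoRNA genes lie above the line at high levels, and most transposable elements (triangles) lie below it.

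All 23 member genes for small nucleolar RNAs (snoRNAs) were higher in idn2-1. The annotation holds 287 snoRNA genes, and 2.32% of all tested features were members. How many of the 287 were tested is unknown. Small nucleolar RNAs are short stable RNAs that guide chemical modification of ribosomal RNA and other RNAs in the nucleolus. Many belong to the C/D type, which pairs with its target and carries a C box (TGATGA at its core) near the 5′ end and a D box (CTGA) near the 3′ end. The members with the highest levels, those with the largest ratios and a group of close copies are printed here, because every listed snoRNA gene moved the same way. Each was read from the RefSeq TAIR10.1 genome at its annotated position, and capitals mark a TGATGA in the first 20 bases and a CTGA in the last 20 bases.
AT2G35382 (chr2:14894380-14894455, minus strand): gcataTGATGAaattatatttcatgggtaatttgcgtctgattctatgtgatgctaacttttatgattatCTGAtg
AT2G35384 (chr2:14894549-14894627, minus strand): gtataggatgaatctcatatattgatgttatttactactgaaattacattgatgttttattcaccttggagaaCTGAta
AT1G03743 (chr1:937207-937287, minus strand): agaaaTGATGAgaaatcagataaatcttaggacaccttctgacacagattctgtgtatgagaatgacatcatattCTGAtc
AT1G03746 (chr1:937401-937485, minus strand): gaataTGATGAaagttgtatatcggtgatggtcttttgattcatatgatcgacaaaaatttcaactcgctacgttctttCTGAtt
AT2G20722 (chr2:8931708-8931782, minus strand): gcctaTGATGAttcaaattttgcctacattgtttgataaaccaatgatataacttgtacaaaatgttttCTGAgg
AT5G13225 (chr5:4222003-4222085, minus strand): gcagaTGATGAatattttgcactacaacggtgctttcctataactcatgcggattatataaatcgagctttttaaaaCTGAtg
AT1G74456 (chr1:27984745-27984826, minus strand): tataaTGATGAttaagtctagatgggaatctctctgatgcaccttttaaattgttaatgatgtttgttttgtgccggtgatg
AT4G13245 (chr4:7684061-7684142, plus strand): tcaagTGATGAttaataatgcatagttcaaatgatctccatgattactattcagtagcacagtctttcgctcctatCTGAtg
AT4G39363 (chr4:18305256-18305375, plus strand): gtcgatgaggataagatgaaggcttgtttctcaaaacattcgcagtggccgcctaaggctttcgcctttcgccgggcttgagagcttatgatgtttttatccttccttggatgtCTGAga
AT4G39366 (chr4:18305585-18305704, plus strand): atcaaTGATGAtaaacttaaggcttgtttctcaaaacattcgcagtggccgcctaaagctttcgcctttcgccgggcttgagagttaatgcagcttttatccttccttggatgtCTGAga

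Both boxes were present in 19 of the 23 member snoRNA genes (82.6%) and in 41.8% of the 287 annotated snoRNA genes of all types. AT2G35384 has the D box letters and no TGATGA in its first 20 bases, and AT1G74456 has TGATGA and no CTGA in its last 20 bases. Both searches used the strand of the gene only. A match is a description of the letters, and no match says only that these letters are not in those windows. The member genes span 74 to 122 bp, with a median of 85 bp.

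Levels of these RNAs were the highest of any gene class among the members. Per the authors' deposited table they ranged from 262 to 23695 RPKM in Col-0 (median 4962) and from 732 to 57313 RPKM in idn2-1 (median 11987). The ratio lay between 2.05 and 5.95, and for 20 of the 23 genes it was below 3. The exceptions were AT1G74456, AT2G35382 and AT4G13245. The limit that chose the members leaves out smaller ratios, and the median fold over all members was 2.30. Nothing is therefore read from how close the ratios lie. Levels differed widely from gene to gene.

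AT2G35384 was listed at 23695 RPKM in Col-0 and 57313 in idn2-1, the highest level of the class, per the authors' deposited table (2.42-fold, q = 0.00128). Its neighbour AT2G35382, 93 bp away on the same strand, was at 12319 and 52055 RPKM per the authors' deposited table (4.23-fold, q = 3.95e-09). The pair is thus close in level in idn2-1 and apart in Col-0. AT1G74456 had the largest ratio from a low level, 335 RPKM in Col-0 and 1990 in idn2-1, per the authors' deposited table (5.95-fold, q = 0.0375). AT4G13245 went from 1339 to 5247 RPKM per the authors' deposited table (3.92-fold, q = 0.000902).

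Several of these genes sit in clusters. AT1G03743 and AT1G03746 lie 113 bp apart on chromosome 1 and were 2.29-fold and 2.41-fold higher per the authors' deposited table. On chromosome 2, AT2G20721, AT2G20722 and AT2G20723 lie within gaps of 52 and 66 bp, and were 2.06-fold, 2.55-fold and 2.27-fold higher per the authors' deposited table. The transcribed pseudogene AT2G20724, 657 bp from AT2G20723, was at 77.6 RPKM in Col-0 and 153 in idn2-1 per the authors' deposited table. On chromosome 4, AT4G39363, AT4G39364 and AT4G39366 were 2.65-fold, 2.60-fold and 2.80-fold higher per the authors' deposited table. The sequences of these last 3 genes are 87.8 to 90% identical to each other in pairwise alignment, so reads could be split among them and their separate values are uncertain. Elsewhere copies were less alike. The next closest pairs were AT1G03743 and AT5G44286 (82.6%), AT3G24612 and AT4G13245 (80%), and AT1G32385 and AT2G35384 (74.4%). Whether reads were split within these pairs is unknown. The median identity over the 253 pairs of member snoRNA genes was 53.8%, and no pair was identical. AT2G20721 and AT3G21805 carry the same values per the authors' deposited table although their sequences are 52.4% identical, so their separate values are uncertain too.

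**Figure D2:**
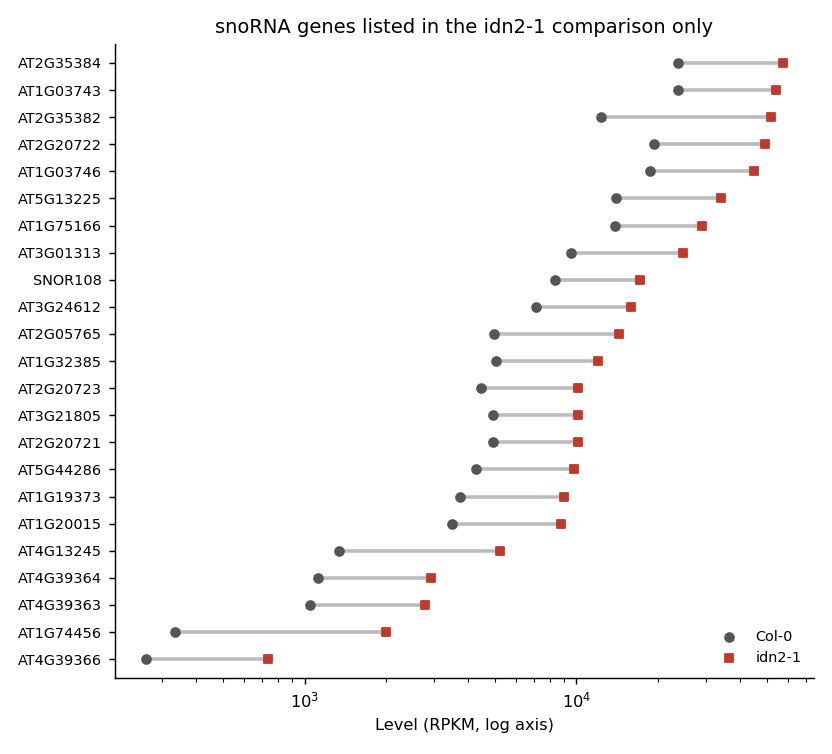
Levels of the 23 member snoRNA genes in Col-0 (circles) and idn2-1 (squares), in RPKM on a log axis, ordered by the level in idn2-1. Each square lies to the right of its circle, at a distance of 2.05-fold to 5.95-fold.

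A pair of microRNA precursors were members, in opposite directions, and the mature sequences annotated for them in RefSeq TAIR10.1 are printed with the seed (bases 2 to 8) in capitals, since they show which family each belongs to.
miR167d (chr1:11137556-11137577, plus strand): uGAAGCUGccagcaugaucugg
miR169m (chr3:9878318-9878338, minus strand): uAGCCAAGgaugacuugccug
MIR167d belongs to a family that targets auxin response factors, and was at 14.8 RPKM in Col-0 and 29.8 in idn2-1 per the authors' deposited table (2.01-fold, q = 0.0205). The seed is shared with MIR167a and MIR167b, and the locus given for MIR167d spans 1605 bp. MIR169m belongs to a family that targets subunits of the transcription factor NF-Y, and was listed at 23.8 RPKM in Col-0 and at 0 in idn2-1 per the authors' deposited table (q = 0.0104). Its mature sequence is identical at 6 other annotated loci, MIR169h to MIR169l and MIR169n, none of which is a member. Libraries of this kind hold precursor RNA, so these values say nothing of the mature RNAs.

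Type-A response regulators were found among the higher members. Cytokinin is sensed by histidine kinase receptors, and the signal passes by phosphorelay to type-B response regulators, which are transcription factors. Type-A response regulators are early transcriptional targets of these factors and dampen the same pathway. Of 10 type-A genes, 5 were members and all 5 were higher, with a median log2 ratio of 1.35, where the median over all higher protein-coding members was 1.13. The list was written after the leading genes had been seen, and 1.75% of all 27444 annotated protein-coding genes were members.

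ARR6 had the largest ratio, at 4.05 RPKM in Col-0 and 19.4 in idn2-1 per the authors' deposited table (4.80-fold, q = 5.64e-11). ARR4 was at 36.9 and 102 RPKM (2.76-fold, q = 8.91e-05) and ARR7 at 46.9 and 96.8 RPKM (2.06-fold, q = 0.0150) per the authors' deposited table. These are the most abundant of the group, and ARR4 lies below ARR7 in Col-0 and above it in idn2-1. ARR9 was at 16.1 and 33.3 RPKM and ARR15 at 3.52 and 8.97 RPKM per the authors' deposited table (q = 0.0134 and 0.00447). A sixth type-A gene, ARR5, was at 3.27 RPKM in Col-0 and 10.7 in idn2-1 and is not a member because another mutant lists it too. None of 7 type-B regulators, 3 cytokinin receptors, 7 cytokinin oxidases and 4 isopentenyltransferases of cytokinin synthesis was listed for idn2-1. PUP14, a plasma membrane importer of cytokinin, was at 51.9 and 107.7 RPKM, and SOB5, whose overexpression raises cytokinin, at 11.3 and 30.3 RPKM per the authors' deposited table (q = 0.0150 and 0.000630). Both were picked after their values were seen. The hexamer AGATCT, which holds the GAT core bound by type-B regulators, was searched on both strands from 250 bases before to 50 bases after the annotated start. It occurs in the ARR7 promoter at 2 positions, in none of the other 9 type-A promoters and in 7.38% of all protein-coding promoters.

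Small proteins of redox balance also appear on the higher side. Class III glutaredoxins, which in Arabidopsis interact with TGA transcription factors, form a tandem array on chromosome 4. AT4G15670 was at 12.9 RPKM in Col-0 and 35.5 in idn2-1, and AT4G15690 at 18.3 and 60.4 RPKM, per the authors' deposited table (q = 0.000453 and 2.89e-06). Their neighbours AT4G15660, AT4G15680 and AT4G15700 were higher in idn2-1 as well, by 3.78-fold, 3.69-fold and 2.50-fold per the authors' deposited table, and are also listed in another mutant. The coding sequences of the 5 genes, each of 309 bp, are 88.3 to 93.2% identical in pairs. Reads may have been divided among copies, so which of the 5 genes count as members is uncertain. Away from the array GRXS13 was at 3.16 and 7.77 RPKM and AT3G62950 at 41.7 and 81.4 RPKM per the authors' deposited table. The glutaredoxin gene AT3G21460, also outside the array, was at 6.65 and 22.8 RPKM per the authors' deposited table (3.43-fold higher). It is listed in another mutant and so is no member. Over all glutaredoxins and thioredoxins, 5 of 119 were members, 4 higher and 1 lower. Over all protein-coding genes 1.75% were members and 0.543% were higher members. The methionine sulfoxide reductases MSRB5, MSRB6 and MSRB9, which repair oxidized methionine in proteins, were 3 of 9 and all higher. That list of 9 genes was written after values had been seen. MSRB6 was at 29.3 and 63.3 RPKM and MSRB5 at 16.3 and 35.4 RPKM per the authors' deposited table, and MSRB9 was 2.01-fold higher.

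Cell wall proteins made up another part of the higher members. Arabinogalactan proteins are heavily glycosylated proteins of the cell surface, many of them with a lipid anchor, and fasciclin-like members carry a domain for cell adhesion. Of 59 genes of this kind, 8 were members (13.6%), 7 higher and 1 lower, where 1.75% of all protein-coding genes were members and 0.543% were higher members. This list was written after values had been seen. AGP12 was the most abundant, at 507 RPKM in Col-0 and 998.6 in idn2-1 per the authors' deposited table (q = 0.0459). AGP17 had the largest ratio, 10.5 against 29.1 RPKM per the authors' deposited table (2.77-fold, q = 0.000131). AGP1, AGP41, AT4G16980, FLA9 and FLA13 were 1.89-fold to 2.17-fold higher. The exception was SOS5, a fasciclin-like gene known for its role in salt tolerance and root growth, at 19.5 RPKM in Col-0 and 9.67 in idn2-1 per the authors' deposited table (q = 0.0231). Among 30 xyloglucan endotransglucosylases, which cut and rejoin wall polymers, XTH16 and XTH19 were members (6.67%) and 1.89-fold and 2.32-fold higher. The list of these 30 genes was also written after values had been seen. A further 3 genes of that family, XTR6, XTH18 and TCH4, were also higher in idn2-1 and are listed in another mutant.

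Some genes for chromatin proteins were found on the lower side. Of 123 genes whose annotated product names a bromodomain, a PHD finger or chromatin remodelling, 7 were members (5.69%, against 1.75% of all protein-coding genes). All 7 were lower, with a median log2 ratio of -1.11, close to the median of -1.14 over all lower protein-coding members. The search also takes the broader name RING/FYVE/PHD zinc finger superfamily. The member AT2G37950 has only that name, so it need not encode a chromatin protein. CHR11, an ISWI ATPase that spaces nucleosomes, was at 20.7 RPKM in Col-0 and 9.69 in idn2-1 per the authors' deposited table (q = 0.00952). RLT2, which encodes a partner of ISWI in the same complex, was at 6.58 and 3.12 RPKM per the authors' deposited table (q = 0.0110). These were 2 of the 4 genes of a list for that complex, which was written after values had been seen. CHR8, a SNF2-type gene, was at 2.23 and 0.852 RPKM, and ETL1, a further SNF2-type gene, at 10.1 and 4.66 RPKM per the authors' deposited table. A list of 25 genes for bromodomain and GTE proteins, written after values had been seen, had 5 members, all lower. Of these, AT3G57980 and AT3G60110 are also among the 7 members above. The others are GTE genes, among them GTE4 at 40.2 and 19.1 RPKM and GTE8 at 8.77 and 4.22 RPKM per the authors' deposited table. GTE6 was 1.99-fold lower. These genes encode readers of acetylated histones. None of the 12 SWI/SNF subunit genes of the list was a member.

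Of 52 genes taken by annotated product name as SET domain or jumonji proteins, 3 were members (5.77%, against 1.75% of all protein-coding genes). All 3 were lower. The jumonji genes MEE27, which encodes a histone demethylase, and AT1G62310 were at 7.12 and 6.41 RPKM in Col-0 and at 0.916 and 2.18 in idn2-1 per the authors' deposited table (q = 0 and 4.65e-05). AT5G01590 was at 106 and 52.7 RPKM per the authors' deposited table (q = 0.0316). It is in the list only because its annotated product is ATXR3-like, and whether it encodes a SET domain was not checked. Of 30 genes of RNA-directed DNA methylation and demethylation, DML2 was the only member, at 7.15 and 3.76 RPKM per the authors' deposited table (q = 0.0394). DML2 encodes a DNA glycosylase that removes methylated cytosine, like ROS1, which is listed in another mutant and so is no member. ROS3, an RNA-binding protein that acts with ROS1, was at 10.2 and 5.37 RPKM per the authors' deposited table (q = 0.0474). The locus of ROS3 is shared with another listed feature, so its value is uncertain. SMC5 and SMC6A, subunits of a complex for DNA repair, were 2.31-fold and 1.97-fold lower, 2 of 3 genes of that list. TUDOR-SN 1 and 2, a pair of cytoplasmic RNA-binding nucleases of stress granules, were both lower, at 53.7 against 23.8 and 31.6 against 12.1 RPKM per the authors' deposited table (q = 0.00721 and 0.000366). The lists that hold ROS3, the SMC genes and the TUDOR-SN genes were written after values had been seen.

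Pentatricopeptide and tetratricopeptide repeat proteins had the most lower members of the lists used here, in a list that is large and was written after values had been seen. Pentatricopeptide proteins bind organelle RNA and act in its editing, splicing and stability. Of 564 genes with these repeats in the product name, 21 were members (3.72%) and all 21 were lower, with a median log2 ratio of -1.28. Over all protein-coding genes 1.75% were members and 1.20% were lower members. ATSDI1 of the same list was 3.10-fold higher in idn2-1, and AT4G39530 was 2.22-fold lower, but both are listed in another mutant and so are no members. Most had low levels: in Col-0, 18 of them lay under 10 RPKM. AT3G09060 was at 1.94 RPKM in Col-0 and 0.436 in idn2-1, and AT1G62914 at 1.83 and 0.251 RPKM, per the authors' deposited table (q = 0.000422 and 0.00122). CRR22, an editing factor of chloroplast transcripts, was at 3.84 and 1.79 RPKM, and OTP70, known from splicing of a chloroplast transcript, at 2.25 and 0.923 RPKM per the authors' deposited table. The other 3 were AT5G66520 at 16.4 and 8.59 RPKM, AT1G02060 at 725 and 192 RPKM and AT3G26580 at 213 and 84.0 RPKM per the authors' deposited table (q = 0.0411, 2.91e-05 and 0.00118).

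**Figure D3:**
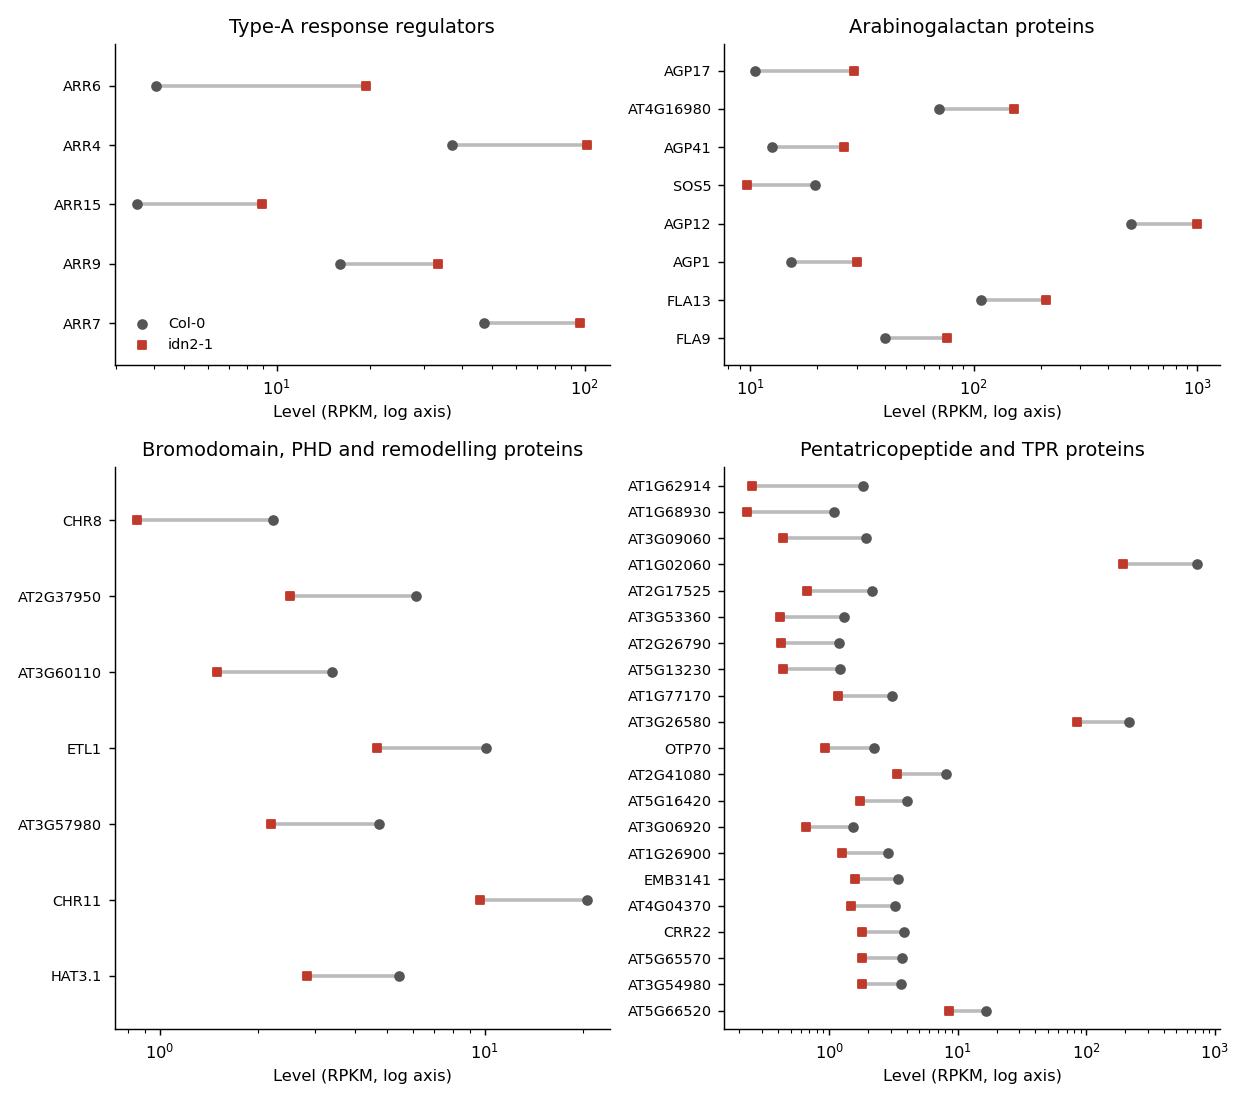
Levels in Col-0 (circles) and idn2-1 (squares) of the member genes of 4 groups, in RPKM on log axes, ordered within a group by the size of the ratio. All 5 type-A response regulators and 7 of 8 arabinogalactan genes lie higher in idn2-1. All 7 genes with bromodomain, PHD or remodelling in the product name and all 21 repeat protein genes lie lower.

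Regulators of jasmonate and ethylene responses were on the lower side as well. ERF2, an activator of defence genes, was at 39.7 RPKM in Col-0 and 13.2 in idn2-1 per the authors' deposited table (3.00-fold, q = 1.46e-05). MYC3, a bHLH factor that acts with MYC2 in jasmonate responses, was at 17.2 and 8.79 RPKM per the authors' deposited table (q = 0.0327). With ORA59 at 6.79 and 2.71 RPKM per the authors' deposited table, 3 of 8 genes of the list were members. This list was written after values had been seen, and 1.75% of all protein-coding genes were members. MYC2 was lower too but is listed in another mutant. PR1, a marker of salicylic acid responses, was at 17.2 and 3.54 RPKM per the authors' deposited table (q = 3.26e-08). Not all genes of that pathway were lower: EDS1, which acts in immune signalling ahead of salicylic acid, was at 3.70 and 7.25 RPKM, and NDR1, a membrane protein gene needed by some immune receptors, at 8.47 and 18.6 RPKM per the authors' deposited table (q = 0.0418 and 0.0138). NDR1 was picked after its values were seen. Of 133 immune receptor genes of the NBS-LRR class, 3 were members: WRR4 at 7.82 and 16.9 RPKM, RPS4 at 6.03 and 2.85 RPKM and AT5G46450 at 4.89 and 1.91 RPKM per the authors' deposited table. WRR4, a gene for resistance to white rust, was thus higher where RPS4, a gene for recognition of a bacterial effector, was lower. Among 280 receptor kinase genes 6 were members, 1 higher and 5 lower. The shares of both receptor lists, 2.26% and 2.14%, are near the 1.75% of all protein-coding genes.

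Single genes with large ratios came from varied families. TPPI, which encodes a trehalose phosphate phosphatase, was at 107.5 RPKM in Col-0 and 4.24 in idn2-1 per the authors' deposited table and was the 1 member among 19 trehalose genes. The lncRNA gene AT3G22121 was at 568 and 124 RPKM, and AT2G45315, a further lncRNA gene, at 5.83 and 1.11 RPKM per the authors' deposited table (q = 2.86e-10 and 1.06e-05). AT4G15120, which encodes a VQ motif protein, was 5.10-fold lower. MLP34, an MLP-like gene, was 3.38-fold lower and ZFP1, a zinc finger gene, 3.28-fold lower. On the higher side the RNA-binding protein gene ARP1 was at 0.288 and 5.35 RPKM and AT5G59845, which encodes a gibberellin-regulated peptide, at 1.41 and 5.29 RPKM per the authors' deposited table (q = 1.17e-12 and 0.0109). AT1G49500 was at 147 and 477 RPKM and AT5G44568 at 15.1 and 48.8 RPKM per the authors' deposited table (q = 8.25e-06 and 1.68e-06). MPC, which encodes a protein with a poly(A)-binding protein domain, was at 0.730 and 7.79 RPKM per the authors' deposited table (q = 0.00237). RHA3B, a RING finger gene, was 3.16-fold higher.

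Values of 0 in a genotype were listed for 36 members, 16 in Col-0 and 20 in idn2-1. AT2G41082, a gene of unknown product with a locus of 105 bp, was listed at 0 in Col-0 and at 294 RPKM in idn2-1 per the authors' deposited table (q = 0.0216). Its neighbour AT2G41080, a pentatricopeptide gene 270 bp away, was lower, at 8.15 and 3.39 RPKM per the authors' deposited table. CYP712A1, a cytochrome P450 gene, was listed at 2.04 RPKM in Col-0 and at 0 in idn2-1 per the authors' deposited table (q = 7.94e-05). AT3G63052 was at 19.8 RPKM and 0 per the authors' deposited table (q = 0.0445). The elements AT3TE43000 and AT3TE92015, at 0 in Col-0 and at 2.36 and 2.72 RPKM in idn2-1, carry the same q as AT2G41082. RPKM is scaled by length, so 294 RPKM at a locus of 105 bp may rest on few reads. The number of reads behind these values is unknown. No ratio is given against a value of 0.

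The remaining lists held few members. None was found among genes of small RNA pathways (16), RNA decay (12), phosphate starvation (14), heat shock (11) and glucosinolate synthesis (13), or among light harvesting and photosystem proteins (60) and respiratory chain subunits (84). Single members came from iron homeostasis (NAS4, a nicotianamine synthase gene, 2.27-fold higher), flavonoid synthesis (DFR, dihydroflavonol reductase, 2.28-fold higher), SAUR genes (SAUR29, higher), histones (AT2G28720, 2.07-fold lower) and cellulose synthase relatives (CSLB03, higher). Pairs of higher members came from cytosolic ribosomal proteins (2 of 344, 0.581%) and heavy metal proteins (2 of 84, 2.38%). Pairs of lower members came from kinesins and myosins (2 of 117, 1.71%) and ABC transporters (2 of 67, 2.99%). A further pair each, with 1 gene higher and 1 lower, came from F-box proteins (653, 0.306%) and lipid transfer proteins (139, 1.44%). All 4 members among 128 helicase genes (3.13%) were lower. Of 268 genes of small secreted peptides 8 were members (2.99%), 7 of them higher, and most of the 8 are the arabinogalactan genes above. Over all protein-coding genes 1.75% were members, with 0.543% higher and 1.20% lower. Differences from these shares were not tested.

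Direction followed gene span among the protein-coding members. The 149 higher genes had a median annotated span of 1356 bp and a median of 531 bp of coding sequence, and the 330 lower genes had medians of 3034.5 bp and 1801.5 bp. All 27444 annotated protein-coding genes lie between them, at 2078 bp and 1047 bp. A single exon was annotated for 32.2% of the higher genes, 19.4% of the lower genes and 20.5% of all. Between 500 and 1000 bp, 35 of 48 member genes were higher. Between 4000 and 8000 bp, 4 of 104 were. In the longest of 3 equal classes of all protein-coding genes listed for idn2-1 (above 2920 bp) 10 of 187 members were higher (5.35%), against 17 of 39 genes also listed in another mutant (43.6%). In the shortest class (up to 1667 bp) the shares were 64.1% of 145 members and 79.0% of 81 others. The difference between the 2 sets was not tested.

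Some of the gene groups above follow this order and others do not, and the part of gene span in their direction was not tested. Median spans were 1160.5 bp for the arabinogalactan members, 864 bp for the glutaredoxins and thioredoxins and 1312 bp for the methionine sulfoxide reductases, most of which were higher. They were 3846 bp for the bromodomain, PHD and remodelling members, 5558.5 bp for helicases and 2361 bp for the repeat proteins, all of which were lower. The type-A response regulators, at a median of 2312 bp and a range of 1482 to 2509 bp, were higher at spans close to those of the repeat proteins. ERF2, MYC3 and ORA59, with a median of 1314 bp, were lower at a median close to that of the methionine sulfoxide reductases, which were higher. The median GC content of the annotated span was 37.5% for higher genes, 39.7% for lower genes and 38.9% for all.

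**Figure D4:**
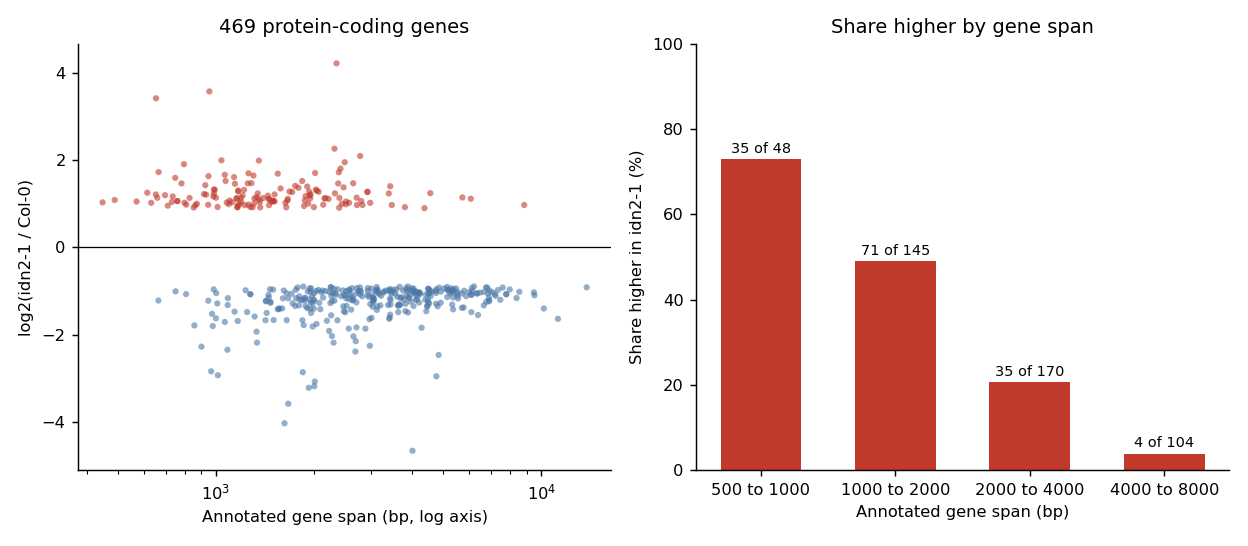
Left, log2 ratio of idn2-1 to Col-0 against annotated gene span (log axis) for the 469 protein-coding members above 0 in both genotypes. Right, the share of protein-coding members that were higher, by span: 35 of 48 genes from 500 to 1000 bp, and 4 of 104 from 4000 to 8000 bp.

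Shares of promoters with the searched motifs are given for higher members, lower members and all protein-coding genes, and their differences were not tested. In the window around the start described above, TATAAA (the TATA box core) occurs in 54.4% of promoters of higher members, 52.4% of lower members and 52.1% of all protein-coding genes. For TGGGCC the shares were 14.1%, 16.4% and 15.5%, for AAACCCTA 4.03%, 6.06% and 6.22%, and for CACGTG (the G-box) 4.70%, 8.18% and 7.68%. TTGACC, a form of the W-box, occurs in 15.4%, 11.5% and 14.2%, and AAAATATCT, the evening element, in 0.671%, 2.42% and 2.82%. AGATCT occurs in 10.7%, 7.88% and 7.38%. Both strands were searched, and none of these matches is evidence of binding.

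Transposable elements were mostly lower: 86 of the 106 member elements, with a median of 124 RPKM in Col-0 and 22.8 in idn2-1 per the authors' deposited table. RNA-directed DNA methylation is known for keeping such elements silent. The loci of 79 of the 86 overlap an annotated gene, and those of 74 a protein-coding gene. Reads of an element and of the gene at its locus cannot be told apart here. The position and length of the elements themselves were not used, since the reference annotation has no entries for them. The highest level was that of AT1TE00010, at a locus on chromosome 1 (11649 to 13714) that overlaps NGA3, with 282064 RPKM in Col-0 and 28666 in idn2-1 per the authors' deposited table (9.84-fold lower, q = 0). AT1TE52670, at a locus that overlaps PMI1, was at 17673 and 1591 RPKM, and AT1TE59245 at 11613 and 593 RPKM per the authors' deposited table (q = 2.17e-10 and 0.00835). AT5TE72360, at a locus of 87 bp with no annotated gene, was at 7136 and 198 RPKM per the authors' deposited table, the largest ratio of any member (36.1-fold, q = 7.00e-07). NGA3 and PMI1 are not listed for idn2-1, so the gene values at these loci did not pass the limit where the elements did.

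The 20 higher elements had low levels by comparison. Of these, 11 were at 0 in Col-0 and the median in idn2-1 was 3.58 RPKM per the authors' deposited table. Only 3 reached 100 RPKM: AT1TE83185 (15.8 and 165 RPKM), AT3TE89880 (42.6 and 138 RPKM) and AT1TE32425 (34.2 and 103 RPKM), per the authors' deposited table. AT3TE89880 shares its locus with the listed gene AT3G59765, and AT1TE83185 lies in a locus that overlaps POLA2. The levels of the 2 groups overlap in idn2-1, where 12 of the lower elements were at 0. For 8 elements, 2 higher and 6 lower, the locus overlaps a gene listed for idn2-1, and gene and element had the same direction in all 8.

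**Figure D5:**
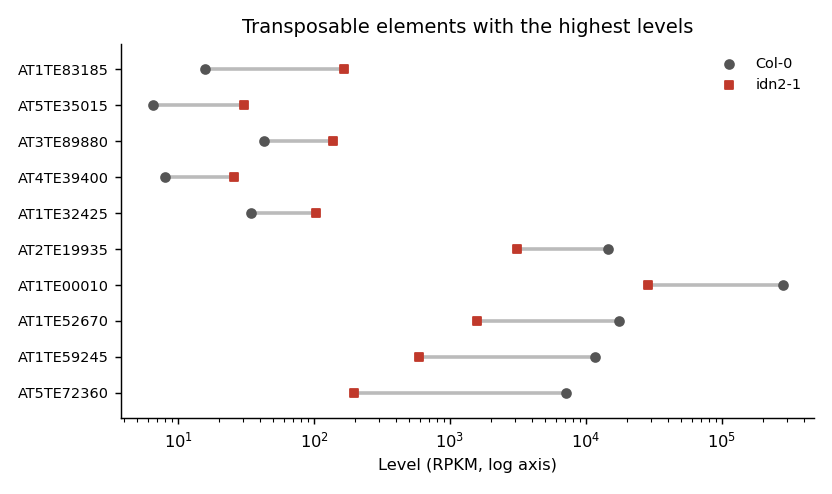
Levels in Col-0 (circles) and idn2-1 (squares) of the elements with the highest levels in each direction, in RPKM on a log axis. Of the 12 elements named by that rule, AT5TE31645 (0 in Col-0) and AT1TE57985 (0 in idn2-1) cannot be drawn on a log axis. The 5 higher elements shown reach 25.6 to 165 RPKM, and the 5 lower ones start from 7136 RPKM or more.

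Other gene classes were small. Of 3917 annotated pseudogenes 12 were members, where 2.32% of all tested features were members. How many of the 3917 were tested is unknown. All 12 were lower. Among them SADHU2-1, a copy of the non-coding Sadhu retroelement family, was at 10.2 RPKM in Col-0 and 3.26 in idn2-1 per the authors' deposited table (q = 0.000394). MUG4, a gene derived from a mutator transposase, was at 10.4 and 4.90 RPKM per the authors' deposited table (q = 0.0135). For SADHU2-1 the deposited locus spans 22846 bp where the annotated pseudogene spans 891 bp, so which transcript its reads came from is uncertain. The median level of the 12 pseudogenes in idn2-1 was 0.329 RPKM. Transcribed pseudogenes were split, with 4 higher and 3 lower, and lncRNA genes were 2 higher and 8 lower. Although ribosomal RNA was depleted, AT3G41768, a gene for 18S rRNA (chromosome 3, 14197677 to 14199484), was at 19.0 and 3.61 RPKM per the authors' deposited table. The non-coding gene AT3G41761, at a nearby locus (14195741 to 14196603), was at 250 and 46.8 RPKM per the authors' deposited table. That locus is shared with the member AT3G41762, which was also lower, so the value of AT3G41761 is uncertain. Whether the residue of rRNA has a part in other values was not tested. The non-coding gene AT4G04223 had the largest ratio of any member gene, from 0.0574 to 1.79 RPKM per the authors' deposited table (31.1-fold, q = 0.0303).

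Among member genes that are neighbours in the annotation there were 20 pairs, 13 with the same direction and 7 with opposite directions. In 6 of the 13 both genes are snoRNA genes. The opposite pairs include the snoRNA gene AT5G13225 (14017 and 34109 RPKM) and the repeat protein gene AT5G13230 (1.20 and 0.435 RPKM), 426 bp apart, per the authors' deposited table. SNL2, which encodes a SIN3-like corepressor, was at 8.40 and 4.22 RPKM and the lncRNA gene AT5G15022 next to it at 35.4 and 71.0 RPKM per the authors' deposited table. For CDKC2, a kinase gene, and AT5G64970 the deposited loci overlap, so the opposite directions there are uncertain. Over all members, 32 share a locus with another feature listed for idn2-1, and 138 member genes overlap another annotated locus on the other strand. The sources used here do not say whether the libraries kept strand. In seedlings that are sequenced whole, fewer cells of a type and less RNA per cell cannot be told apart for any of these genes.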

How the data were processed

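RNA-seq of 12 seedling samples was processed by the submitters with TopHat and Cufflinks on TAIR10, per the submitters' processing notes, without versions. Each deposited table holds, per the file headers, 1 RPKM value per genotype, a log2 ratio, a p-value and a q-value, and lists features with q below 0.05. The sources used here do not give how q was computed or how replicates were pooled. Ratios were recomputed from the RPKM values and equal the authors' log2 values within 1.24e-05. The number of tested features was recovered from the Benjamini-Hochberg relation of q to p and rank, checked on simulated data. Col-0 values of the idn2-1 table were 0.856 times those of the nrpe1 table (median of 134 shared features), so levels are given within the idn2-1 table only. Columns of per-sample values left unmapped numbered 0.

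Starts were made 1-based. All 752 matched genes overlap their RefSeq TAIR10.1 gene, which gave names, spans, strands and sequences; 2 members have no entry. Deposited loci can cover several features. The tables hold no per-sample values, so nothing was tested and depth gives no interval. Members and gene lists were chosen with earlier results of these data known, and 16 lists were written after their values had been seen. A total of 6 list names were left out because name and identifier did not match. Genes named are the 12 largest ratios in each direction (both values above 0, the higher at least 5 RPKM), 6 genes at 0 in a genotype by level, 6 snoRNA genes by level, 6 elements by level in each direction, 3 members with the largest q, and at most 6 per list with the higher value at least 1 RPKM; any others were picked after their values were seen. Python 3.11.15, pandas 2.3.3, numpy 2.4.6 and matplotlib 3.10.9 were used.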

Additional observations from a re-analysis of the deposited data

How the results depend on the processing

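With q below 0.01 the authors' deposited table leaves 65 higher and 185 lower members, and 53.5% of protein-coding members in the shortest span class were higher. When the length of the deposited locus replaced the annotated span, 11.1% of the longest class were higher. Under the other settings (at least 2-fold, a higher value of at least 1 or 5 RPKM, each locus once, no overlapping locus listed in another mutant, coding length, pseudocounts of 0.1 and 1, and genes alone, the last chosen after seeing the data) counts stayed within 1.5 times and directions held. No paired analysis was possible because the tables hold 1 value per genotype, and no replicate could be left out for the same reason. Depth is unknown, so low levels have no stated precision.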
